A study of Mus musculus with 42 samples.

Results

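The Krüppel-like factor genes Klf3, Klf4, Klf5, Klf6, Klf7, Klf9, Klf10, Klf12, Klf13 and Klf15 were described over 42 single cells of the developing mouse retina. They were taken by gene symbol from the annotation of the array and were 10 of the 18194 genes measured. Each cell was 1 Affymetrix mouse genome array, and the cells came from retinas of outbred CD1 mice at 6 stages, with no other genotype or treatment given. E12.5 gave 11 cells, E13.5 gave 4, E14.5 gave 2, E15.5 gave 1, E16.5 gave 11 and the day of birth (P0) gave 13. The cells were picked by hand at random after papain digestion, and the labels call all of them retinal progenitor cells, a class assigned afterwards from their expression profiles. Some of them, E14.5 cell B1 and E16.5 cell F1 included, were then also placed between progenitor cell and neuron, which the labels do not mark and which was not used as a group. The cDNA of each cell was made with an oligo dT primer, which reads from the 3′ end of a transcript, and was amplified by 35 cycles of PCR. Values are MAS 5.0 signals on a linear scale, with every array scaled to a target intensity of 500. The value of a gene in a cell was the highest signal among its probe sets that carry a single gene symbol. Presence of a gene meant a value of 1000 or above, the level below which the study took signals as background.

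Krüppel-like factors are transcription factors with zinc fingers at their carboxyl end, which bind CACCC boxes and GC-rich sequences in DNA. The part outside the zinc fingers differs between members and recruits coactivators or corepressors, so that family members can activate or repress genes with similar sites. In neurons of the eye and brain the family is best known for neurite growth, which Klf4 and Klf9 restrain and Klf6 and Klf7 promote, and several members also act on the cell cycle.

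The sources used here name no animal or litter of origin, so the cells of a stage counted as 1 sample. Stages were not tested against each other, and the exact (Clopper-Pearson) 95% intervals below cover counting error only. The age, the litter and the day of collection of a cell cannot be told apart. The number of genes present per cell had a median of 3034 and ran from 1386 to 5253. The E16.5 cells F1, E8, J4, J2 and J1 were measured on 5 arrays with a different pattern of hybridization controls. On these arrays, the median probe set signal was 216 to 293, against 10.1 to 216 on the other 37 arrays. E13.5 cell A6 and E16.5 cell F1 had 3 and 4 of 12 keratin and muscle genes present, against 0 to 2 in every other cell. Markers of other cells of the eye were rare. Blood markers were found in 4.76% of gene and cell combinations, microglia markers in 0.595%, lens markers in 3.97% and pigment epithelium markers in 2.38%. Of 6 endothelial markers, Kdr was present in 25 cells, but Cdh5 and Esam were present in none. Of the 9 progenitor markers measured, 72.0% of values were present, with Ccnd1 and Pax6 in 41 cells each.

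The 250 bases before the transcription start of 4 members are shown here because these members differed in the cells that held them: Klf4 was found in 3 of the 4 E13.5 cells, Klf13 in nearly all P0 cells, and Klf6 and Klf7 in no common cell. Each is given 5′ to 3′ on the strand of the gene, from RefSeq on GRCm38.p6, with capitals for CACCC boxes (CACCC or GGGTG) and GC boxes (GGGCGG or CCGCCC).
Klf4 (chr4:55532476-55532725, minus strand): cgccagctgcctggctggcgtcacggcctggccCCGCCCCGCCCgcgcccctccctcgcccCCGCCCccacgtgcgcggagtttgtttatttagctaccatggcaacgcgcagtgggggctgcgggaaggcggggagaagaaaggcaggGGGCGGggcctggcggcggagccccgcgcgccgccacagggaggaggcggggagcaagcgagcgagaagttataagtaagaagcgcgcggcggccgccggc
Klf13 (chr7:63938916-63939165, minus strand): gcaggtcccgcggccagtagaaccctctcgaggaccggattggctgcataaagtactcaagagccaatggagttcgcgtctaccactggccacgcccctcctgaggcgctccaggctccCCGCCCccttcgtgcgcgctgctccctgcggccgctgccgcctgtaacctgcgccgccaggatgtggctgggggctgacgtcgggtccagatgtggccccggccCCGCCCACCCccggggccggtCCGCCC
Klf6 (chr13:5861239-5861488, plus strand): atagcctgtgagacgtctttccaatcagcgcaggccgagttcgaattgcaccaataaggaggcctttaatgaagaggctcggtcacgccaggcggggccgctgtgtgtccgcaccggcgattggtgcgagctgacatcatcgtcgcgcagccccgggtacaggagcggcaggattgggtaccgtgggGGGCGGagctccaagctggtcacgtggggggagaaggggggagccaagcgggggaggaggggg
Klf7 (chr1:64121390-64121639, minus strand): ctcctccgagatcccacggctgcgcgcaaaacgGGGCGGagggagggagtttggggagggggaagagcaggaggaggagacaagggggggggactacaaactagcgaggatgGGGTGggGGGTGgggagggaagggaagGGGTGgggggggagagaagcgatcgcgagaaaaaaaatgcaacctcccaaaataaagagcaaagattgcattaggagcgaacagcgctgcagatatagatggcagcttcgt

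Upstream windows were at hand for 8 of the 10 members, all but Klf5 and Klf10. The Klf4 window held 4 GC boxes, 2 of them overlapping, and no CACCC box. The Klf13 window held 3 GC boxes and 1 CACCC box, which shares a base with a GC box, and 2 CCAAT boxes (CCAAT or ATTGG). The Klf6 window held 1 GC box and 4 CCAAT boxes. The Klf7 window, which lies within the annotated span of the gene, held 3 CACCC boxes and 1 GC box. Among the other windows, Klf3 had the most boxes of both kinds, with 5 CACCC boxes and 6 GC boxes in a window of 78.4% G and C. Klf12 had 1 CACCC box and no GC box, in a window of 48.0% G and C. The windows of Klf12 and Klf15 also lie within the annotated spans of their genes. A CACCC box was found in 6 of the 8 members and in 52.0% of all 32817 windows searched on both strands. A GC box was found in 6 of the 8 and in 32.7% of all windows, and a CCAAT box in 4 of the 8 and in 33.8%. The median over all windows was 52.4% G and C. Of the 8 members, all but Klf12 lay above it, from 59.2% (Klf7) to 78.4% (Klf3). The shares of boxes are thus not on equal terms. None of the 8 held the cyclic AMP response element TGACGTCA, which was in 1.55% of all windows. A match is a description of the letters and not of a bound site.

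Every member was present in at least 1 cell, as were 72.6% of all genes measured, but none was present in all cells. Of the 420 member values, 87 were present, or 20.7%, against 17.0% over all genes. Of these 87 values, 29 lay under 2000. The 10 members had 38 probe sets and the 18194 genes had 34958, so a member had more chances to reach the level. These shares are thus not on equal terms. With the probe set of highest mean alone, the member share was 16.9%, with Klf3 in 8 cells and Klf6 in 11. The share over all genes is not given for that setting. Klf13 was found in the most cells, 21 of 42 (50.0%, interval 34.2% to 65.8%), and 10.8% of all genes were found in as many. It was followed by Klf3 in 14 (33.3%, 19.6% to 49.5%) and Klf6 in 12 (28.6%, 15.7% to 44.6%). Klf7 and Klf10 were found in 9 cells each, Klf12 in 8, Klf9 in 5, Klf4 in 4, Klf5 in 3 and Klf15 in 2. The intervals of neighbours in this order overlapped throughout. Values close to the level of 1000 were Klf7 in E12.5 cell A4 at 1067 and Klf13 in E16.5 cell E8 at 1071 on the inside. On the outside lay Klf13 in E12.5 cell E1 at 996 and in E13.5 cell A8 at 993, and, in E16.5 cells, Klf4 in J2 at 933 and Klf3 in E8 at 908.

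**Figure D1:**
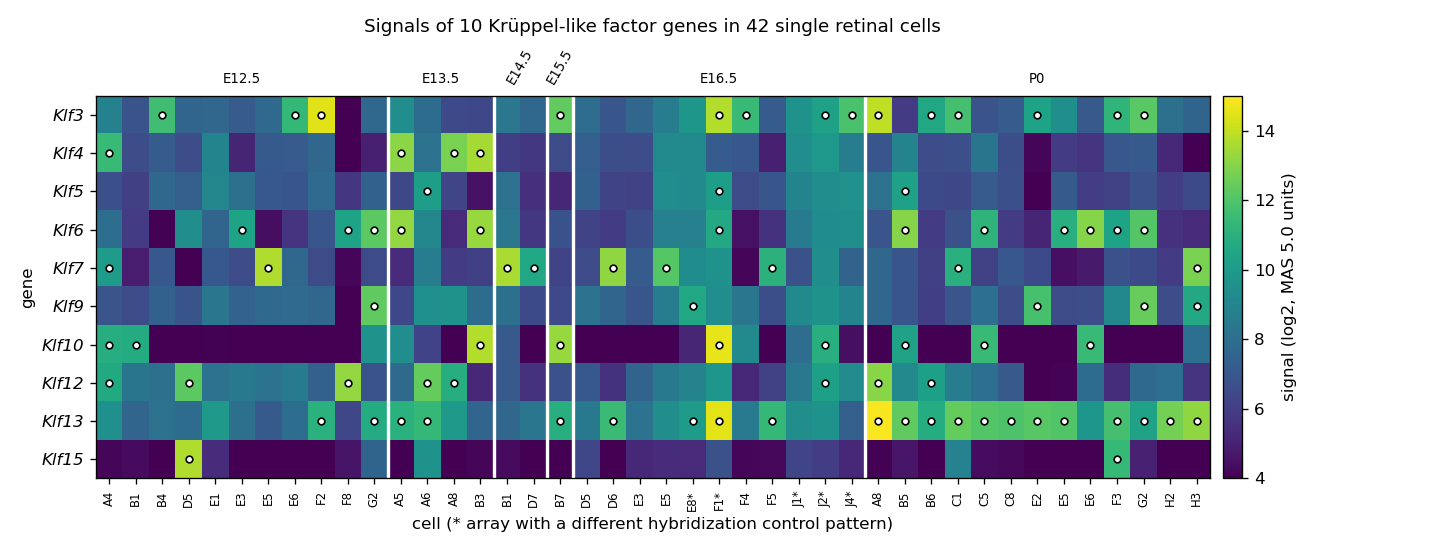
The signal of each of 10 genes (vertical axis) in each of 42 cells (horizontal axis, grouped by stage) is shown as colour on a log2 scale, which starts at 4, so that lower signals share the darkest colour. White circles mark signals of 1000 or more, and asterisks mark the 5 E16.5 arrays with different controls. The circles are in nearly every P0 cell for Klf13 and in 3 of the 4 E13.5 cells for Klf4.

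A cell had from 0 to 5 members present, with a median of 2. No member was present in 4 cells, which were E12.5 cell E1 and E16.5 cells D5, E3 and J1. A single member was present in 12 cells, 2 in 9, 3 in 12 and 4 in 4. Only E16.5 cell F1 had 5 members. This cell also had the most genes present (5253), the highest median probe set signal (293) and the most keratin and muscle genes. The median was 3 members both in P0 cells (1 to 4) and in E13.5 cells (2 to 3). It was 1 member both in E12.5 cells (0 to 4) and in E16.5 cells (0 to 5). By stage, 16.4% of member values were present in E12.5 cells, 27.5% in E13.5 cells, 15.5% in E16.5 cells and 27.7% in P0 cells. Over all genes these shares were 15.3%, 18.0%, 16.8% and 18.1%. Klf13 alone gave 12 of the 36 member values present at P0 and 2 of the 18 at E12.5. The difference between P0 and E12.5 cells, 11.3 points, was 5.66 after quantile normalization and 4.90 with the same number of genes called present on every array. Among E16.5 arrays, 6 of 60 member values were present on the 6 arrays with usual controls and 11 of 50 on the other 5. Of those 11 values, 7 lay under 2000, and of the 6 values none did. Spearman's rho between the members and all genes present was 0.354 over 42 cells, 0.524 over the 11 E16.5 cells and -0.0437 over the 13 P0 cells.

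Among the 3 stages with at least 11 cells, E12.5, E16.5 and P0, Klf13 was the member whose presence differed most. Klf13 is a member close to Sp1 in its zinc fingers, first described in T lymphocytes. At P0, its signals ran from 875 to 30029 with a median of 4206, and 12 of 13 cells were at 1000 or more (92.3%, 64.0% to 99.8%). The P0 cell below the level was E6 at 875, and 5 P0 cells were above 5000. At E12.5, the signals ran from 80.6 to 2081 with a median of 263, and 2 of 11 cells, F2 at 2081 and G2 at 1735, were present (18.2%, 2.28% to 51.8%). At E16.5, they ran from 161 to 23662 with a median of 693, and 4 of 11 cells were present (36.4%, 10.9% to 69.2%). These were F1 at 23662, D6 at 2914, F5 at 2566 and E8 at 1071. At E13.5, A6 was at 2568, A5 at 2085, A8 at 993 and B3 at 190. The E14.5 cells were at 195 and 318, and the E15.5 cell was at 1889. The ranges of signals at P0 and at the earlier stages thus overlapped, but the P0 median was above every E12.5 value.

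The share of cells with Klf13 was 74.1 percentage points higher at P0 than at E12.5, with a Newcombe interval of 35.0 to 88.6. A difference of 30 points or more was called, among genes present in at least 5 of the 42 cells, and 7 of the 10 members passed that filter, as did 42.2% of all genes. Klf13 was the only one of these 7 called between P0 and E12.5. By the same rule, 11.1% of the 7685 genes tested were called higher at P0 than at E12.5, and 3.59% were called lower. A difference at least as large as that of Klf13 was found in 17 genes, Klf13 itself included. Between P0 and E16.5, the difference for Klf13 was 55.9 points (17.8 to 78.1). It was 59.0 points (14.2 to 83.5) with the 6 usual E16.5 arrays alone, a setting in which 23.7% of all genes were called higher at P0. It fell to 28.7 points after quantile normalization, and was 30.1 when the same number of genes was called present on every array. Of all genes tested, 11.8% were called higher at P0 than at E16.5 and 4.01% lower. Between E16.5 and E12.5 no member was called over all 11 E16.5 cells, and the difference for Klf13 was 18.2 points (-18.2 to 49.3). For this comparison 4.62% of all genes were called higher and 4.79% lower. With the 6 usual arrays alone, Klf7 passed the limit, as given below, and these shares were 4.87% and 14.3%.

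**Figure D2:**
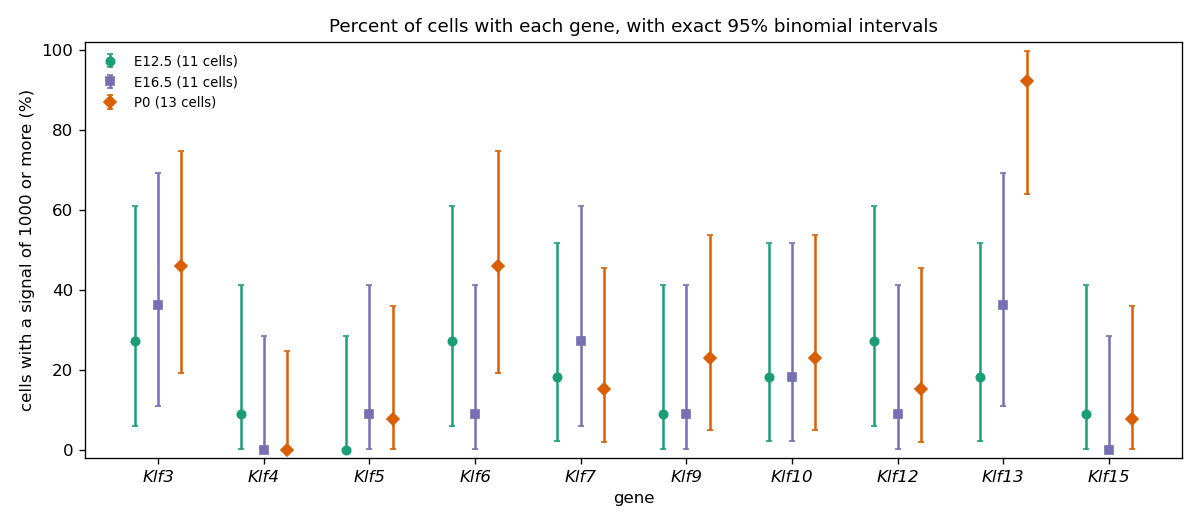
The percent of cells in which a gene reached 1000 (vertical axis) is given for each gene (horizontal axis) in E12.5, E16.5 and P0 cells, with exact 95% binomial intervals that cover counting error only. The intervals of Klf13 at P0 (64.0% to 99.8%) and E12.5 (2.28% to 51.8%) do not overlap, and those of the other genes do.

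The genes with presence most like that of Klf13 were Frmd4b, Tagln2 and Ppp3cb. The likeness was measured by the Jaccard index, the cells in which both genes were present divided by the cells in which at least 1 was, which was 0.708, 0.640 and 0.618 over the 42 cells. Frmd4b was present in 13 of 13 P0 cells and in 2 of 11 E12.5 cells. In all, 10 genes, or 0.130% of those tested, were present in at least 12 P0 cells and at most 2 E12.5 cells, a pattern chosen after the values of Klf13 were seen. They were Car2, Cmpk1, Col9a3, Crym, Frmd4b, Gpm6b, Klf13, Tagln2, Ttyh1 and Zc3h15. Crym, a thyroid hormone binding protein, was present together with Klf13 in 14 cells, and Car2, a carbonic anhydrase, in 13. Crym was present in 13 P0 cells and Car2 in 12, so most of these shared cells restate the stage pattern above. Rlbp1, a retinoid binding protein of Müller glia and progenitor cells, shared 10 cells with Klf13 (Jaccard index 0.455). Sfrp2, a secreted inhibitor of Wnt signals, shared 11 (0.282), and the growth factor gene Fgf15 shared 15.

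Klf4, one of the factors used to reprogram cells to pluripotency and an inhibitor of axon growth in retinal ganglion cells, was present in 4 cells. At E13.5, its signals were 8757 in A5, 7157 in A8, 11562 in B3 and 280 in A6. Thus 3 of 4 E13.5 cells were well above the level (75%, 19.4% to 99.4%), and A6 was far below it. At E12.5, A4 had 2736 and the other 10 cells lay below 1000. At E16.5, 0 of 11 cells were present (interval up to 28.5%), and the highest signal was 933. At P0, 0 of 13 cells were present (up to 24.7%), and the highest signal was 483. A second gene, Hmga2, a chromatin protein of early progenitors, was present in at least 3 E13.5 cells and at most 1 other cell. Klf4 and Hmga2 were the only 2 such genes, 0.0152% of the 13200 genes present in at least 1 cell, by a rule chosen after the values were seen. The cells of Hmga2 were E13.5 A5 (2900), A6 (1148) and A8 (3848) and E12.5 E3 (2944), so that 2 cells were shared.

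**Figure D3:**
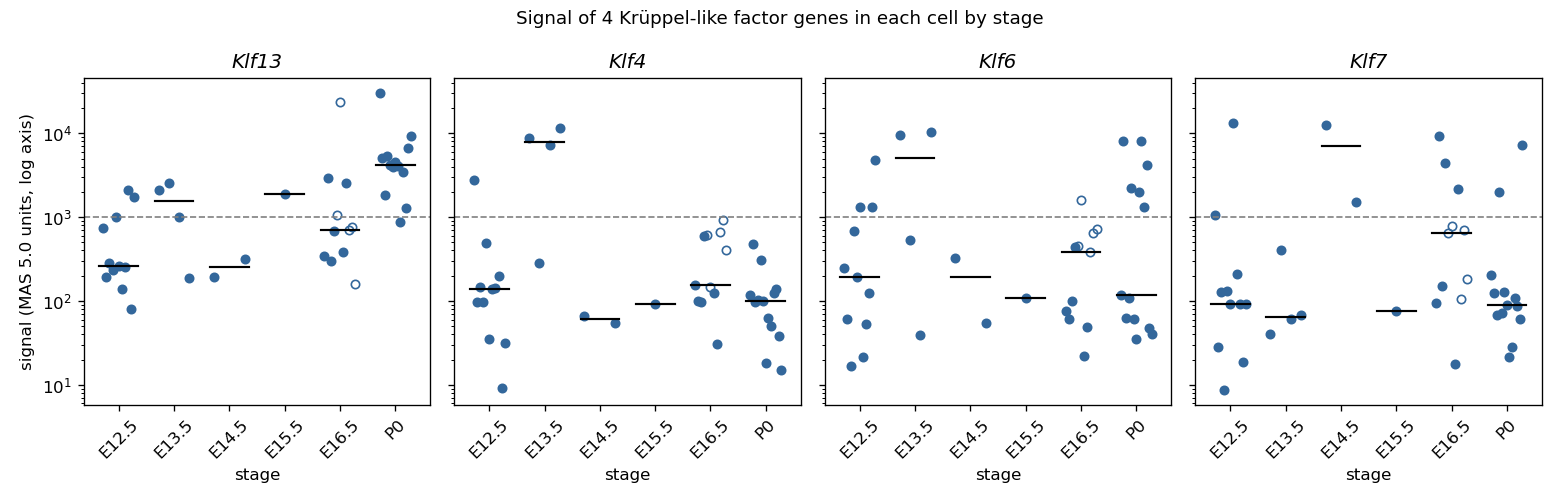
Each point is the signal of 1 cell (vertical axis, log scale) for Klf13, Klf4, Klf6 and Klf7 by stage (horizontal axis); the dashed line is the level of 1000, horizontal bars are medians and open points are the 5 E16.5 arrays with different controls. The P0 cells lie highest for Klf13, while the high values of Klf6 and Klf7 come from a few cells of several stages.

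The Klf4 cells also had many immediate early genes, which are transcribed within minutes of a stimulus. Of 16 such genes, 7 were present in E12.5 A4, 9 in E13.5 A5, 11 in A8 and 7 in B3, with a median of 8. The other 38 cells had 0 to 7, with a median of 3.5, and E13.5 A6 had 5. The AP-1 genes Fos, Fosb and Jund and the zinc finger gene Egr1 were present in all 4 Klf4 cells. Egr2, Ier2, Dusp1 and Btg2 were present in 3 of them, and these genes were named after their values were seen. Over all cells, Fos was present in 32, Egr1 in 29, Jun in 20 and Btg2 in 17, and Nr4a1 was present in none, with a highest signal of 842. The Klf4 cells had 2157 to 4828 genes present, with a median of 3683.5 against 3034 in the other cells. With 3034 genes called present on every array, the Klf4 cells had 6 to 9 immediate early genes (median 7) and the others 0 to 7 (median 4). None of the 4 cells had an endothelial, blood, microglia or lens marker present, and they had 5 to 8 of the 9 progenitor markers. Of the pigment epithelium markers, Pmel was present in 1 of them, E13.5 A5, at 24440, the highest Pmel signal of the 42 cells. Since 3 of the 4 Klf4 cells were from E13.5, stage and Klf4 cannot be told apart in these counts.

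**Figure D4:**
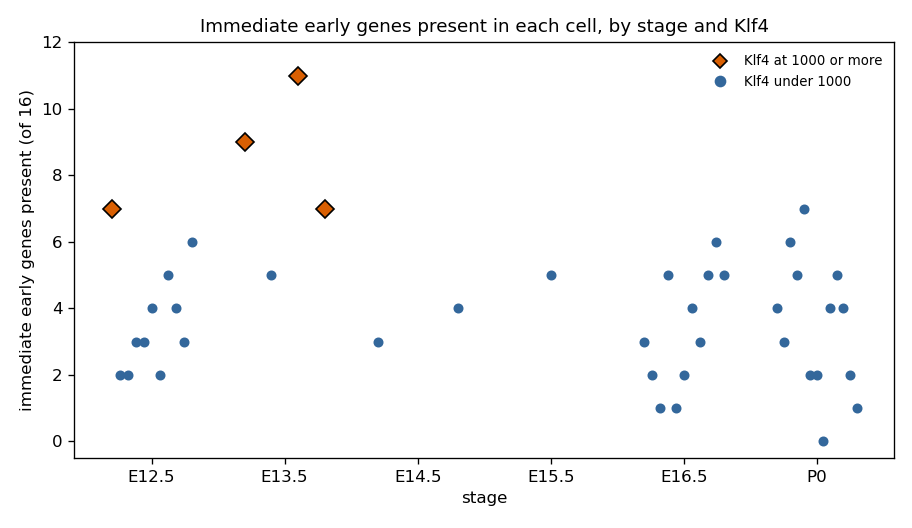
Each point is 1 cell, placed by its stage (horizontal axis) and the number of 16 immediate early genes present in it (vertical axis); diamonds are cells with Klf4 at 1000 or more. The 4 diamonds lie at 7 to 11 genes, and the other 38 cells at 0 to 7.

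Klf6, a factor whose mRNA is induced by injury in many tissues and that promotes axon growth, was present in 12 cells. At E12.5, G2 had 4749, F8 1330 and E3 1323. At E13.5, A5 had 9506 and B3 10232, while A6 had 532 and A8 39.3. At E16.5, only F1 was present, at 1600, and this was 1 of the 5 arrays with different controls. At P0, B5 had 8151, E6 8082, G2 4225, C5 2248, E5 1984 and F3 1332, and the other 7 cells had 35.5 to 119. The P0 cells thus fell into 6 cells present and 7 far below the level, with none between. The share of cells with Klf6 was 37.1 points higher at P0 than at E16.5 (0.360 to 62.9), which was called. It was 46.2 points (0.875 to 70.9) with the usual E16.5 arrays alone, and 21.7 points, under the limit of 30, both after quantile normalization and with the same number of genes present on every array. Against E12.5, the share at P0 was 18.9 points higher (-18.3 to 49.2), and with either of those settings the difference was -5.59 points. The genes most like Klf6 were Gli3, Naa30 and Stk17b, with Jaccard indices of 0.571, 0.556 and 0.533. Gli3, a transcription factor of the Hedgehog pathway, was present in all 12 Klf6 cells and in 21 cells in total.

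Klf10, a member induced by TGF-beta, was present in 9 cells and was measured by a single probe set. Its highest signals were 24566 in E16.5 F1, 13712 in E13.5 B3 and 10131 in E15.5 B7. At E12.5, A4 had 1866 and B1 1722. At P0, C5 had 2713, E6 2709 and B5 1308, and E16.5 J2 had 1990. Both E16.5 cells with Klf10 were thus among the 5 arrays with different controls. At P0 its share was 4.90 points higher than at E12.5 (-28.2 to 35.0). Klf10 and Klf6 shared 5 cells, E13.5 B3, E16.5 F1 and P0 B5, C5 and E6, which were 55.6% of the Klf10 cells and 41.7% of the Klf6 cells. Their Jaccard index was 0.313, and 5.78% of genes present in at least 5 cells were as close to Klf6 and 3.77% as close to Klf10. All 3 P0 cells with Klf10 had Klf6. The genes most like Klf10 were Thap1 (0.500), Ccm2 (0.467) and Sirt1 (0.467). Cells with Klf10 had 2 to 7 of the 16 immediate early genes (median 5), and cells without it 0 to 11 (median 4). For Klf6 the medians were 4 with and 3.5 without.

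Klf7, a member needed for axon growth of several kinds of neuron, was present in 9 cells. At E12.5, E5 had 13190 and A4 1067, and at E14.5, B1 had 12539 and D7 1508. At E16.5, D6 had 9307, E5 4413 and F5 2155, and at P0, H3 had 7173 and C1 1997. No E13.5 cell was present, with signals of 39.9 to 400. The 3 E16.5 cells were all among the 6 arrays with usual controls. With these 6 arrays alone, the share of cells with Klf7 was 31.8 points higher at E16.5 than at E12.5 (-11.2 to 65.7), past the limit of 30. Between P0 and these arrays it differed by -34.6 points (-67.8 to 6.58), also past the limit, as 2.62% of all genes did in that direction. Both intervals include 0. Of the E16.5 cells, E5 and F5 reached the level on probe set 1419354_at alone, with 24.2 and 29.8 on 1449439_at. With the probe set of highest mean, the difference between P0 and all E16.5 cells was 6.29 points. It was -11.9 points with the highest signal among the probe sets. Between P0 and E12.5 the share differed by -2.80 points (-34.3 to 27.1). The genes most like Klf7 were Phf21b (Jaccard index 0.600), the neuronal RNA binding protein gene Elavl3 (0.545) and Gng3 (0.500), a G protein subunit of neurons.

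Markers of retinal ganglion cells were counted in the Klf7 cells. Of 6 markers measured, the 9 Klf7 cells had 0 to 5 with a median of 3, and the other 33 cells 0 to 5 with a median of 1. E14.5 B1, E16.5 E5 and P0 C1 had 5 each, D7 had 4, F5 3, E12.5 A4 and E16.5 D6 2 each, P0 H3 1 and E12.5 E5 none. The ranges thus overlapped fully, and the cell with the highest Klf7 signal had no marker. Stmn2, a regulator of microtubules in growing neurites, was present in 8 of the 9 cells and in 19 cells in all. Sncg was present in 5 of the 9, Gap43 and Rbpms in 4 each, and Nefl and Isl1 in 3 each. The Klf7 cells had 1 to 9 of 9 progenitor markers (median 6), against 3 to 9 (median 7) in the others. Pax6 was present in 9 of the 9 and Ccnd1 in 8. E12.5 E5 had 1 progenitor marker and none of the 8 cell cycle genes. With the same number of genes called present on every array, 7 cells had Klf7, with 0 to 6 ganglion markers and a median of 4, against 1 in the others.

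Klf3, a repressor that recruits the corepressor CtBP, was present in 14 cells, which included no E13.5 or E14.5 cell. At E12.5, F2 had 23515, B4 3161 and E6 2538, and the E15.5 cell had 5264. At P0, A8 had 15858, G2 4699, C1 3447, F3 2329, B6 1525 and E2 1344. At E16.5, F1 had 13758, J4 3688, F4 2791 and J2 1238. Only F4 of these 4 cells was measured on an array with usual controls, so that 1 of 6 usual arrays and 3 of 5 others had Klf3. The share of cells was 18.9 points higher at P0 than at E12.5 (-18.3 to 49.2). The genes most like Klf3 were Hs2st1 (Jaccard index 0.632), a heparan sulfate sulfotransferase gene, Cenpu (0.588) and Get1 (0.571). The corepressor genes Ctbp1 and Ctbp2 were present in 38 and 24 cells.

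Klf9, which is induced by thyroid and glucocorticoid hormones, was present in 5 cells. These were E12.5 G2 at 5162, E16.5 E8 at 1532 and P0 G2 at 5624, E2 at 3512 and H3 at 1612. All 5 also had Klf13. At P0 the share was 14.0 points higher than at E12.5 (-18.3 to 42.2). The gene most like Klf9 was Tril, with a Jaccard index of 0.571, which was present in 6 cells, 5 of them from P0. Lztfl1 (0.500) and Nucb1 (0.444) followed. None of the 5 Klf9 cells had an amacrine marker present, but only 15.9% of amacrine marker values were present over all cells. The cells without Klf9 had 0 to 5 of these markers, with a median of 1. The Klf9 cells also had no photoreceptor, microglia or pigment epithelium marker, while ganglion cell, blood, endothelial and lens markers were each present in some of them.

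Klf12, a repressor of the AP-2 alpha gene, was present in 8 cells. At E12.5, F8 had 9571, D5 4782 and A4 1624, and at E13.5, A6 had 5477 and A8 1861. At P0, A8 had 8467 and B6 1174, and E16.5 J2 had 1232. The value of E13.5 A6 came from probe set 1439846_at, which was present in no other cell. The other 7 cells were set by 1455521_at, which read 330 in A6, a cell with a median probe set signal of 216. The share of cells with Klf12 differed by -11.9 points between P0 and E12.5 (-43.2 to 20.2). The genes most like it were Nynrin (0.462), Trim8 (0.455) and Aamdc (0.444).

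Klf5, known for its part in the growth of epithelia, was only just above the level in its 3 cells, with 1108 in E13.5 A6, 1130 in E16.5 F1 and 1259 in P0 B5. The first 2 of these are the cells with the most keratin and muscle genes. Klf15, known as a repressor of photoreceptor genes, was present in E12.5 D5 at 13020 and in P0 F3 at 2655, and its next highest signal was 773 in E13.5 A6. Photoreceptor genes were present in 6.46% of values over the 7 measured. Crx was found in 7 cells, Rom1 in 5, Rbp3 in 4 and Nrl in 3, and Rcvrn, Pde6a and Tulp1 in none.

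Of the 45 pairs of members, 13 had no common cell, 13 shared 1 cell and 6 shared at least 4. Apart from Klf6 with Klf7, the pairs with no common cell all include Klf4, Klf5, Klf9 or Klf15, the members in the fewest cells. Of genes present in at least 5 cells, 18.1% shared no cell with Klf9. Pairs of other genes were not counted, so these numbers have no share to stand beside. The median Jaccard index over the pairs was 0.0769. The highest, 0.346, was that of Klf3 and Klf13, which shared 9 cells, 64.3% of the Klf3 cells and 42.9% of the Klf13 cells. For Klf3, 10.7% of genes present in at least 5 cells were as close as Klf13, and for Klf13, 24.8% were as close as Klf3. Klf6 and Klf13 shared 8 cells (0.320), a likeness reached by 4.69% of genes with Klf6 and by 31.2% with Klf13. Klf9 and Klf13 shared 5 cells (0.238), reached by 3.10% of genes with Klf9 and 52.5% with Klf13. Klf13 shared at least 1 cell with every other member, but only 0.234% of genes present in at least 5 cells shared none with it. Klf6 and Klf7 shared none of their 12 and 9 cells. Of genes present in at least 5 cells, 2.34% shared no cell with Klf6 and 6.90% shared none with Klf7. Klf4 shared 2 cells each with Klf6 (A5 and B3), Klf10 (E12.5 A4 and B3) and Klf12 (E12.5 A4 and A8).

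**Figure D5:**
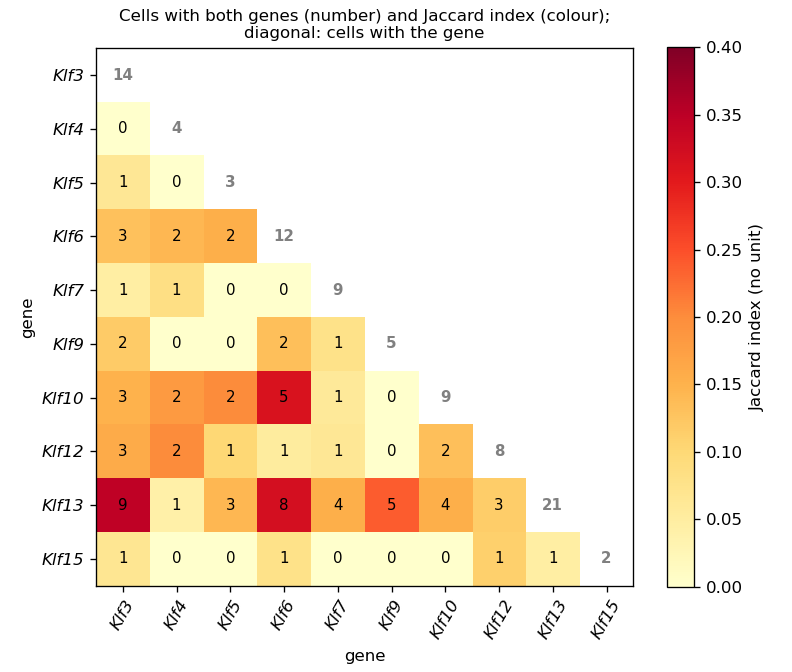
Each square is a pair of genes (both axes); the number is that of the cells with both genes, the colour is the Jaccard index, and the diagonal gives the number of cells with the gene. Klf3 with Klf13, Klf6 with Klf13 and Klf6 with Klf10 have the highest indices, and Klf6 with Klf7 is at 0 cells.

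The presence of several members depended on a single probe set, or on probe sets that did not respond together. The 10 genes had 38 probe sets. The Klf13 value was set at 1000 or more by 1436316_at in 19 of 21 cells, 12 of them from P0. For Klf6, 1433508_at and 1447448_s_at were present in 11 cells each and shared 10, with a Spearman's rho of 0.820 over 42 cells. For Klf3, 1421604_a_at was present in 6 cells and 1454666_at in 8, but both only in P0 F3, with a rho of 0.00737. For Klf4, 1417394_at was present in A4, A5 and A8 and 1417395_at in A8 and B3, with a rho of 0.416. For Klf7, 1419354_at and 1449439_at were present in 6 cells each and shared 3, with a rho of 0.364. For Klf9, 1428288_at was present in 4 cells and 1456341_a_at in 2, but both only in P0 E2, with a rho of 0.410. In E12.5 G2 the first read 3.90 and the second 5162, and in P0 G2 they read 5624 and 7.89. Each rho runs over all 42 cells, most of them below 1000 on both probe sets, so it largely ranks background signals. The counts of shared cells do not have this limit.

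Other genes of the family ranged from 0 to 22 cells. Over 13 other Krüppel-like factor and Sp genes measured, 10.8% of values were present, with 11.9% of E12.5, 4.90% of E16.5 and 11.8% of P0 values. Sp3 was present in 22 cells, 1 more than Klf13, with 10 of them from P0. Sp1 was present in 16, with 9 of them from P0. These are general activators and repressors at GC boxes. Sp4 was present in 7 cells and Klf11, a close relative of Klf10, in 6, of which 3 were from E12.5 and none from P0. Klf2, Klf14, Sp5 and Sp7 were present in none, with highest signals of 594, 308, 538 and 933. Klf1, Klf17 and Sp6 were each present only in E13.5 A6.

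Partners of the family were also counted. Of 11 corepressor and coactivator genes, 52.4% of values were present, and Ctbp1 (38 cells), Hdac2 (31), Sin3b (29) and Hdac1 (27) were found most often, while Ep300 was in 3 cells. Of 6 genes for ubiquitin ligases that act on family members, 42.5% of values were present. Stub1 was in 27 cells, Fbxw7 in 25, Skp2 in 18, Btrc and Vhl in 14 each, and Wwp1, which targets Klf5, in 9. Of 8 cell cycle genes, 50.3% were present, with Ccnd1 in 41 cells, Top2a in 35, Mki67 in 33 and Cdkn1b in 25. Cdkn1a, the cell cycle inhibitor that Klf4 and Klf6 activate in other cells, was present in 4 cells, at E13.5, E14.5, E16.5 and P0 in 1 cell each.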

How the data were processed

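Each of the 42 arrays held the amplified cDNA of 1 cell, of which 10 micrograms were labeled. The deposited values are linear signal intensity values made by the authors in MAS 5.0 with a target of 500, and the trimmed mean of every array lay between 500.00 and 500.02. They were used without further scaling. Amplification by 35 cycles of PCR can lose or overstate rare transcripts, so that absence in a single cell is no proof that the gene was silent, and low signals carry no order. No 2 arrays held identical values. The number of arrays limits the precision.

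Of 45101 probe sets, 34958 carried 1 gene symbol in the platform annotation, 932 carried several symbols and entered only an alternative, and 9211 have no name here. All 10 genes matched RefSeq (GRCm38.p6) by gene identifier. Shares of cells were given exact 95% intervals and differences Newcombe intervals. Each stage was 1 sample and no test was run. The rule for named genes was all 10 members, the up to 4 genes of a list with the most cells, and the 3 genes with the highest Jaccard index for members in at least 5 cells; further genes of a list are given where a count was 0 or a member shared cells with it. The members and lists were chosen with earlier results of these data known. Alternatives were other levels, other ways to combine probe sets, quantile normalization, equal numbers of genes present, and leaving out arrays. Scripts were tested on simulated data. Python 3.11.15, numpy 2.4.6, pandas 2.3.3, scipy 1.17.1 and matplotlib 3.10.9 were used.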

Additional observations from a re-analysis of the deposited data

Results flagged for a closer look

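Only the 4 E13.5 cells form a group small enough for a check of single cells that lie apart, and 12 quantities were looked at there, of which 5 had 1 cell apart from the other 3. A chance rate of about 1 in 20 groups was not checked for linear signals, so no excess of flags can be read from it. The 5 are not independent, since 3 of them are the same cell, A6. The Klf5 signal of A6 was 1108, against 23.2 to 82.9 in the other 3 cells. The Klf7 signal of A6 was 400.4, against 39.9 to 67.6, and its Klf15 signal was 773, against 5.10 to 18.1, and both are below the level of 1000. The median probe set signal of A6 was 216. The Klf10 signal of B3 was 13712, against 16.2 to 679. Members present were 2 in A8 and 3 in each of the other cells. With 3 equal counts, any different count in the remaining cell is flagged.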

How the results depend on the processing

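No paired analysis was possible because the labels number no replicates, the numbers given to cells are only names, and no test was run. The share of member values present, 20.7% as reported, was 30.2% at a level of 500, 13.8% at 2000, 7.14% at 5000, 11.2% with the mean of the probe sets and 16.9% with the probe set of highest mean. At E12.5 it was 4.55% at 5000 and 8.18% with the mean. At E16.5 it was 37.3% at 500, 9.09% at 2000, 3.64% at 5000 and 6.36% with the mean. At P0 it was 19.2% at 2000, 8.46% at 5000 and 16.9% with the mean. The median number of members per cell was 0 at 5000, and the median Jaccard index was 0.211 at 500. The difference in the share between P0 and E12.5, 11.3 points, was 5.66 after quantile normalization, 4.90 with equal numbers of genes and 3.92 at 5000. Fewer or more values pass a higher or lower level by construction. None of these results, nor any difference of a single member called over all arrays, turned its direction under the alternatives run. The Klf7 difference between P0 and all E16.5 cells did turn. It was -11.9 points with the highest signal among the probe sets and 6.29 with the probe set of highest mean. Of 300 results of single members under the 10 alternatives other than leaving out a cell, 18 moved beyond their interval. The other settings for single members between E16.5 and the other stages and for the counts of list genes per cell were added after seeing the data. The Klf13 difference between P0 and E12.5 ran from 38.5 points at 5000 to 76.9 with the mean of the probe sets. Between P0 and E16.5, Klf13 was under 30 points at 5000 (29.4) and after quantile normalization (28.7). Klf6 was under 30 points at 500 (18.9), at 5000 (15.4), with the mean of the probe sets (23.1), after quantile normalization and with equal numbers of genes (21.7 each).

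Leaving out each cell in turn, the share of member values present ran from 20.0% to 21.2% over all stages, from 14.0% to 18.0% at E12.5, from 12% to 17.0% at E16.5 and from 26.7% to 29.2% at P0. The difference in this share between P0 and E12.5 ran from 9.69 to 13.7 points, the median members per cell from 2 to 2, the median Jaccard index from 0.0714 to 0.0833, and the number of members present in at least 1 cell from 10 to 10. The Klf13 difference between P0 and E12.5 ran from 72.3 to 82.3 points. Signal over background limits the weakest calls, since 29 of 87 present values lay under 2000.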
